A study of Danio rerio with 9 samples.

Results

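The mRNAs described here rose early in regrowth of the zebrafish tail fin and were lower again later. They are 206 of the 55393 transcripts in the mRNA table. Each was chosen by its measured values in intact fin, at 3 days post amputation (3 dpa) and at 7 dpa, as group means of log2(signal + 1). The conditions were a 3 dpa mean at least 2 above intact fin, a 7 dpa mean at least 1 below 3 dpa, a mean 3 dpa signal of at least 10, and at least one intact signal above 0. The rise and the later drop are therefore built into the choice and are given as a description. The rule sets no direct condition on 7 dpa against intact fin. It asks for a larger rise than drop, however, which favours a 7 dpa mean above intact fin.

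Caudal fins of wild-type zebrafish were taken either intact, as the control with no amputation, or as regenerating fin at 3 or 7 dpa, after removal of the fin. Each of the 3 groups had 3 libraries of total RNA. The labels used here give neither strain, age and site of the cut nor the number of fish behind each library, so the spread between replicates may be technical. Signal is the authors' normalized value per transcript, and whether it is FPKM or TPM is not stated, so depth is unknown. Table totals lay at 425050 to 441930 for intact fin, 408532 to 417436 for 3 dpa and 406536 to 428538 for 7 dpa.

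A cut zebrafish fin is first closed by a wound epidermis. Beneath it forms a blastema, a mass of dividing progenitors drawn from the tissues of the stump. Outgrowth follows, in which bony rays, connective tissue, vessels and nerves are rebuilt. In bulk tissue a change in the number of cells of a type and a change in RNA per cell cannot be told apart. None of the 206 IDs (0 matched) appeared in the tables that pair zebrafish gene IDs with symbols, and the files hold no gene names. The transcripts are therefore named by ID alone, no role is assigned to any of them, and the tissue could not be checked against marker genes. ENSDART IDs belong to annotated transcripts and TCONS IDs to transcripts assembled from reads. Transcripts of 1 gene can share reads, so the members cannot be taken as independent of each other.

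Over the members the median rise at 3 dpa was 2.65 on the log2 scale, with quartiles at 2.34 and 2.99 and a highest value of 7.04. A total of 155 members lay between the threshold of 2 and a rise of 3, 51 rose by at least 3 and 18 by at least 4. From 3 to 7 dpa the median change was -1.29, from -1.005 to -3.23, and 11 members dropped by at least 2. In the 189 members with every intact signal above 0, the 3 dpa mean was a median of 6.90-fold the intact mean. In the same members the 7 dpa mean was a median of 2.76-fold the intact mean.

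**Figure D1:**
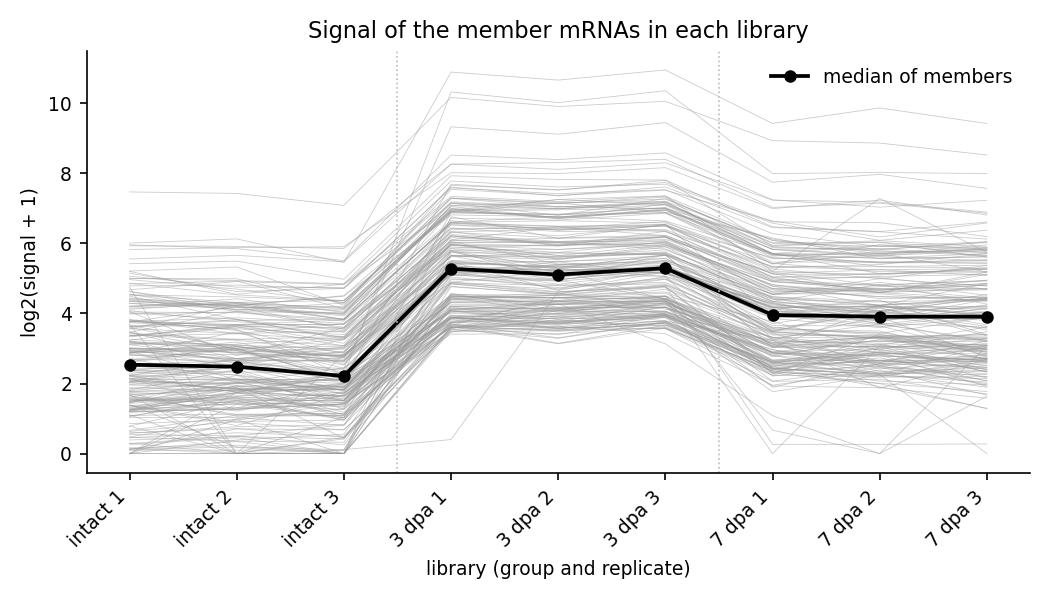
Signal of each of the 206 members (grey lines) on the log2(signal + 1) scale in the 9 libraries, with the median over members in black and dotted lines between the groups. The median steps up at 3 dpa in all 3 libraries and settles between intact fin and 3 dpa in all 3 libraries at 7 dpa. The choice of members requires the step up and the drop. It does not require the position of 7 dpa above intact fin, but a required rise larger than the required drop favours it.

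In the 3 intact libraries the median member had a signal of 4.81, 4.59 and 3.65. At 3 dpa it was 37.8, 33.6 and 38.2, and at 7 dpa 14.5, 14.0 and 14.0. The 7 dpa libraries therefore sat above the intact ones and below the 3 dpa ones. Levels at 3 dpa covered a wide range, from a mean of 10.03 to 1835, with 41 members at 100 or more and 64 under 20.

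Summed, the members made up 0.461%, 0.443% and 0.388% of the mRNA total of the 3 intact libraries. The sum then reached 4.04%, 3.67% and 4.20% of the total at 3 dpa and stood at 1.51%, 1.63% and 1.41% at 7 dpa. The group means were 0.430% ± 0.038 (SD, n = 3), 3.97% ± 0.27 and 1.52% ± 0.11, and no library of one group overlapped with another group. The sum was uneven, since the 21 highest members made up at least 50% of it at 3 dpa. The 5 members with the highest 3 dpa mean held 31.0% ± 1.2 of the member sum at 3 dpa, 28.6% ± 2.0 at 7 dpa and 15.4% ± 1.3 in intact fin. Picking them by their 3 dpa mean favours a larger share at 3 dpa, as the rule does for the members as a whole. Without these 5 the shares of the mRNA total were 0.364% ± 0.028, 2.74% ± 0.14 and 1.08% ± 0.05.

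**Figure D2:**
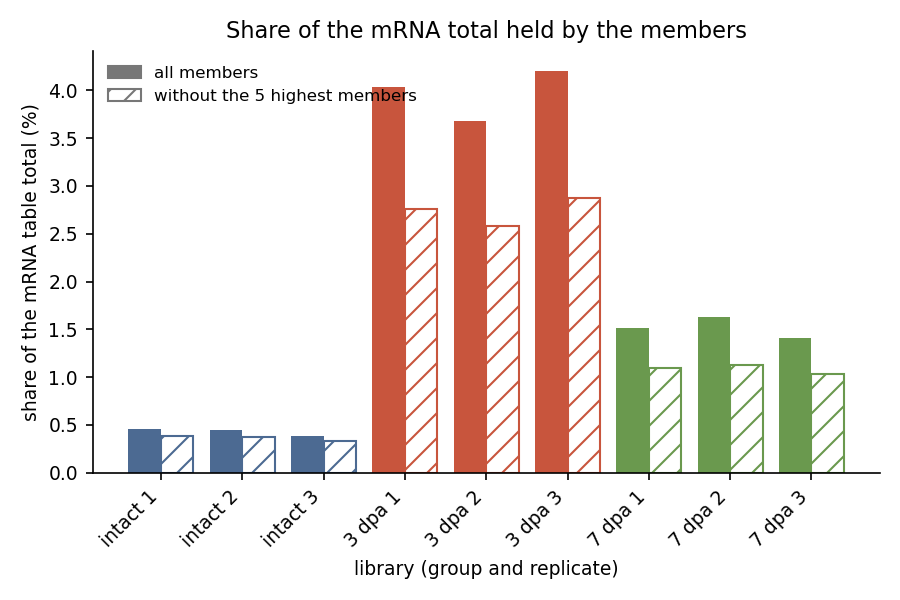
Share of the mRNA table total, in percent, held by all members (filled bars) and by the members without the 5 highest at 3 dpa (hatched bars), in each library. Filled bars stand at 3.67% to 4.20% at 3 dpa, 1.41% to 1.63% at 7 dpa and 0.388% to 0.461% in intact fin.

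The most abundant member at 3 dpa was ENSDART00000128618. In the intact libraries it read 63.4, 69.0 and 42.9, at 3 dpa 1901, 1622 and 1983, and at 7 dpa 687, 934 and 686. The groups did not overlap, and even the lowest 7 dpa library was far above every intact one. Its mean was 31.4-fold the intact mean at 3 dpa and 13.2-fold at 7 dpa. This transcript alone held 11.2% ± 0.46 of the member sum at 3 dpa, 12.0% ± 1.9 at 7 dpa and 3.10% ± 0.50 in intact fin. It was picked for its 3 dpa level, which favours a larger share at 3 dpa than in intact fin.

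With the pseudocount of 1 the largest rise was that of ENSDART00000132089, at 7.04 on the log2 scale. Its intact libraries read 12.8, 10.7 and 3.74, those at 3 dpa 1282, 1038 and 1314, and those at 7 dpa 254, 260 and 254. The 7 dpa libraries lay close together (256 ± 3.2, SD, n = 3), while the intact ones differed more than 3-fold among themselves. The assembled TCONS_00033479 followed with a rise of 6.46, from intact signals of 6.42, 8.10 and 4.41 to 643, 555 and 698 at 3 dpa, and read 214, 250 and 189 at 7 dpa. Both stood far above intact fin at 7 dpa, at 28.2-fold and 34.5-fold the intact means.

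Other abundant members rose less on the log2 scale, and their start was higher than that of ENSDART00000132089 and TCONS_00033479. ENSDART00000127667 had the highest intact level of all members, with signals of 176, 171 and 135, and then 1151, 961 and 1065 at 3 dpa and 488, 465 and 367 at 7 dpa. The intact libraries of ENSDART00000152546 read 61.3, 56.8 and 44.5, followed by 367, 336 and 383 at 3 dpa and by 150.5, 130.3 and 149 at 7 dpa. Neither transcript's groups overlapped. Their 3 dpa means were 6.58-fold and 6.68-fold those in intact fin, and their 7 dpa means 2.74-fold and 2.64-fold.

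**Figure D3:**
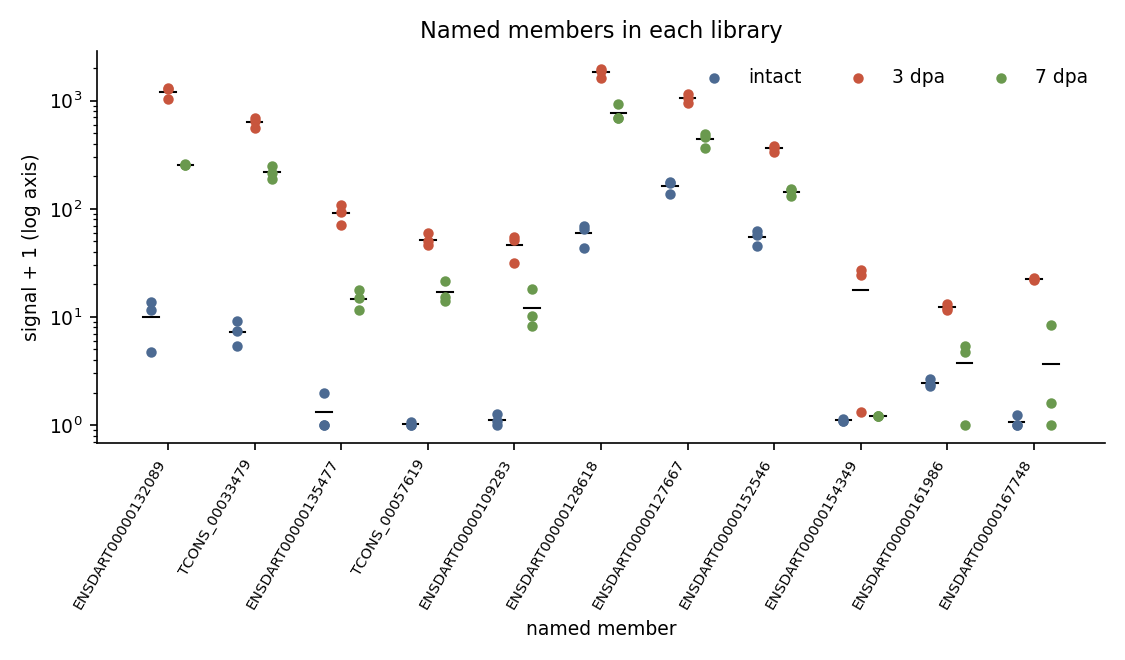
Signal + 1 on a log axis for the 11 named members in the 9 libraries, with 1 point per library and a black bar at each group mean. At 3 dpa ENSDART00000128618 stands highest (1622 to 1983), and one 3 dpa point of ENSDART00000154349 lies near its intact points.

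A further 3 transcripts with the largest rises started near 0. ENSDART00000135477, with intact signals of 0, 0.96 and 0, stood at 108, 69.8 and 92.3 at 3 dpa and 13.9, 16.8 and 10.5 at 7 dpa. The assembled TCONS_00057619 was listed at 0, 0 and 0.07, then at 49.0, 45.4 and 58.7, then at 20.7, 14.4 and 13.0. For ENSDART00000109283 the intact libraries read 0.09, 0.27 and 0, those at 3 dpa 54.4, 30.9 and 50.0, and those at 7 dpa 7.21, 17.0 and 9.28. In all 3 transcripts each 7 dpa library was above every intact library. Their log2 rises of 6.16, 5.66 and 5.33 depend on the pseudocount of 1 and became 8.66, 8.73 and 7.84 with a pseudocount of 0.1, above the 7.21 of ENSDART00000132089.

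Members were divided by their intact level to see whether the course differed with the starting point. In 20 members every intact signal was below 1, in 129 others the intact mean was below 10, and in 57 it was at least 10. The median rise was 4.06 in the first class, 2.54 in the second and 2.61 in the third. A transcript starting near 0 has to rise by more to reach the level floor at 3 dpa, so the higher value of the first class is in part set by the rule. The median change from 3 to 7 dpa was -1.84, -1.28 and -1.22. At 3 dpa the median of the mean signals was 20.7, 21.9 and 119, and at 7 dpa it was 4.11, 9.08 and 52.2. With a rise of at least 2 required, a higher intact level leads to a higher 3 dpa level. A larger rise also leaves room for a larger drop. The order of the classes in level and in change is therefore in part set by the rule, and nothing is read from it.

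The part of the rise still present at 7 dpa was expressed as the 7 dpa minus intact difference over the 3 dpa minus intact difference, both on the log2(signal + 1) scale. Its median was 50.9%, with quartiles at 45.9% and 57.3%, and 153 of 206 members lay between 40% and 60%. Another 21 kept less and 32 kept more. By intact level the medians were 54.2% in the members below 1, 50.3% in the middle class and 51.7% in those at 10 or more, close to each other against quartiles that lay about as wide in each. The rule limits this share from above, most tightly for the smallest rises. The highest shares among members whose groups did not overlap at 3 dpa were those of TCONS_00033479 (76.3%), ENSDART00000128618 (74.6%) and TCONS_00057619 (71.2%), which are also among the largest rises or levels. On the linear scale of the signal the median was 29.0%, with quartiles at 25.3% and 33.6%. By intact level the linear medians were 24.4%, 29.4% and 29.7%, so on this scale the members below 1 kept least. Their linear quartiles were 17.4% and 27.2%, against 27.4% and 34.9% in those at 10 or more. The closeness of the classes was thus seen on the log2 scale with a pseudocount of 1, and not on the linear scale. The pseudocount weighs most on the members below 1, and their larger rises make the limit set by the rule looser. The classes are therefore not like for like, and the differences were not tested.

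**Figure D4:**
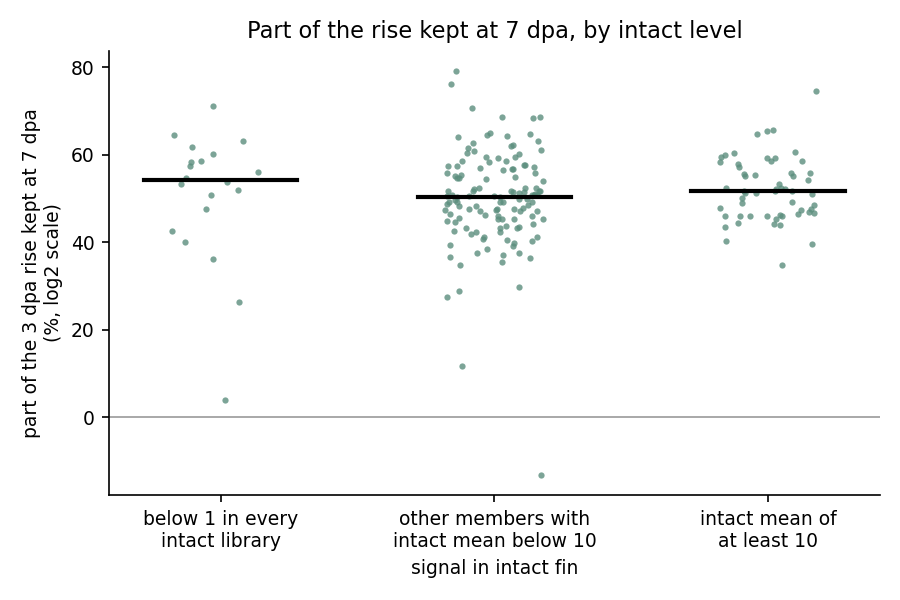
Part of the 3 dpa rise kept at 7 dpa, in percent on the log2 scale, for each member (points, spread sideways for display) in 3 classes of intact signal, with black bars at the class medians. The medians are 54.2%, 50.3% and 51.7%, and 1 member lies below 0.

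At 7 dpa the great majority of members had not returned to the intact level. Of the 205 members that passed the filter on low values, 198 were called higher at 7 dpa than in intact fin and 0 lower (limma, Benjamini-Hochberg adjusted p under 0.05). Among all 25001 transcripts tested, 3093 (12.4%) were called higher and 3289 lower, a balance that turned with scaling. The rule set no direct condition on 7 dpa against intact fin, but both means entered the rule. A member near both thresholds, with a larger required rise than drop, stays above intact fin. The member counts are therefore a description. In 199 of the 205 every 7 dpa library was above every intact one, against 18.7% of all tested transcripts. The median difference over the members was 1.31 on the log2 scale, against -0.04 over all 25001 transcripts tested. The difference was at least 2 in 27 members, at least 1 in 170 and below 1 in 36. These values too are in part set by the rule, and nothing is read from the contrast with all tested transcripts.

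In the contrasts that the rule used, 204 of the 205 were called higher at 3 dpa than in intact fin, with 22.0% of all tested transcripts called so. From 3 to 7 dpa 202 were called lower, with 10.4% of all tested transcripts called so. In 203 of the 205 every 3 dpa library was above every intact and every 7 dpa library, a pattern that 15.7% of all tested transcripts showed. Nothing is read from these counts, since the same libraries chose the members.

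The 3 members with the lowest kept shares, among those whose 3 dpa libraries lay above both other groups, had uneven libraries. ENSDART00000161986 was steady in intact fins, at 1.29, 1.41 and 1.66, and read 11.2, 10.5 and 12.2 at 3 dpa, but 4.41, 3.78 and 0 at 7 dpa. ENSDART00000167748 had 0.23, 0 and 0, then 21.4, 21.0 and 21.7, then 0.59, 0 and 7.46. In both, a single 7 dpa library lay far from the other two, and the 7 dpa values overlapped with intact fin. ENSDART00000154349 was high in 2 of the 3 libraries at 3 dpa, at 23.6 and 26.4, and stood at 0.32 in the other. Its intact signals were 0.09, 0.14 and 0.08 and its 7 dpa signals 0.20, 0.20 and 0.21. It is the 1 member that did not pass the filter, and its mean at 3 dpa rests on those 2 libraries.

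The member ENSDART00000158227, named after its values were seen, had exactly the values of ENSDART00000161986 in 8 of the 9 libraries. In replicate 3 of 7 dpa it read 7.51 where ENSDART00000161986 was listed at 0, so that the kept share was 55.9% in one and 11.7% in the other. The 2 members are thus not separate measurements, and how the signal was divided between them was not tested. No other pair of members had equal values above 0 in 5 or more libraries.

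A pair of members, named here after their values were seen, had 3 dpa libraries that overlapped with another group. ENSDART00000006419 was listed at 11.9, 0 and 0 in the intact libraries, 10.8, 18.4 and 7.77 at 3 dpa, and 1.12, 0 and 2.11 at 7 dpa. It was the 1 member with a 7 dpa mean below intact fin on the log2 scale and the 1 tested member not called at 3 dpa. Its intact mean rests on 1 library, and without that library its 7 dpa minus intact difference turned from -0.32 to 0.91. The intact libraries of TCONS_00049946 were listed at 25.9, 0 and 1.05, with 119, 152 and 163 at 3 dpa, and 35.9, 155 and 52.7 at 7 dpa, so that a single 7 dpa library was as high as those at 3 dpa. The change from 3 to 7 dpa was not called in these 2 or in ENSDART00000108936, which had 28.7, 36.4 and 20.2 at 3 dpa and 0, 7.40 and 6.86 at 7 dpa.

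Between the 3 libraries of a group the members' median coefficient of variation was 20.5% for intact fin, 8.97% for 3 dpa and 14.0% for 7 dpa. Over all tested transcripts with a 3 dpa mean of at least 10 it was 9.57%, 7.04% and 8.91%. The members and these transcripts share that floor but not their levels, and the difference was not tested.

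Replicate 2 of 3 dpa was the lowest of its group in 130 of the 206 members, replicate 1 in 52 and replicate 3 in 24. The members' median deviation from their group mean was -0.086 in that library on the log2 scale, while over all tested transcripts it was -0.004. In intact fin replicate 3 was the lowest in 109 members, with a median deviation of -0.094 against -0.001 over all tested transcripts. These shifts were small beside the rise of at least 2.

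The rule was also applied without 1 library of 3 dpa at a time, and the library left out was then compared with the means of intact fin and 7 dpa. Without replicate 1 the rule took 205 transcripts, of which 182 (88.8%) met both thresholds in replicate 1 itself. Without replicate 3 it took 196, of which 181 (92.3%) met both in replicate 3. Without replicate 2 it took 223, and 165 (74.0%) met both in replicate 2. In that library 222 of the 223 were still above intact fin and above 7 dpa, with a median difference from intact fin of 2.53. The left-out 3 dpa library was in the same direction for nearly every transcript, while replicate 2 fell short of a threshold more often. The intact and 7 dpa libraries were shared between the choice and this comparison. That sharing favours the same direction, so these counts are a description and no test of the list.

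The conditions on rise, level and intact signal alone were met by 311 transcripts, of which 206 (66.2%) also met the condition on the change to 7 dpa. That condition was met by 2.39% of all tested transcripts and by 4.79% of those with a 3 dpa mean of at least 10. Both shares include the members, and 205 of the 289 transcripts behind the second share are members. In the 311 the median change from 3 to 7 dpa was -1.15, with quartiles at -1.34 and -0.88, and 6 were not lower at 7 dpa than at 3 dpa. Over all tested transcripts the median was 0.04. The 311 were chosen for a high 3 dpa mean, which the change subtracts, so nothing is read from the differences in median or in share. The threshold of -1 ran through the dense part of these values, with 88 transcripts less than 0.25 beyond it and 61 less than 0.25 short of it. The 105 risers outside the list had a median rise of 2.33, a median 3 dpa mean of 33.7 and a median intact mean of 5.93. The corresponding medians of the members were 2.65, 36.8 and 4.39. A large 3 dpa mean helps a transcript to meet both conditions, so this order follows in part from the rule. The part of the rise kept at 7 dpa had a median of 55.9% in the 311 and 66.8% in the 105, against 50.9% in the members. The condition on the change favours that order as well.

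**Figure D5:**
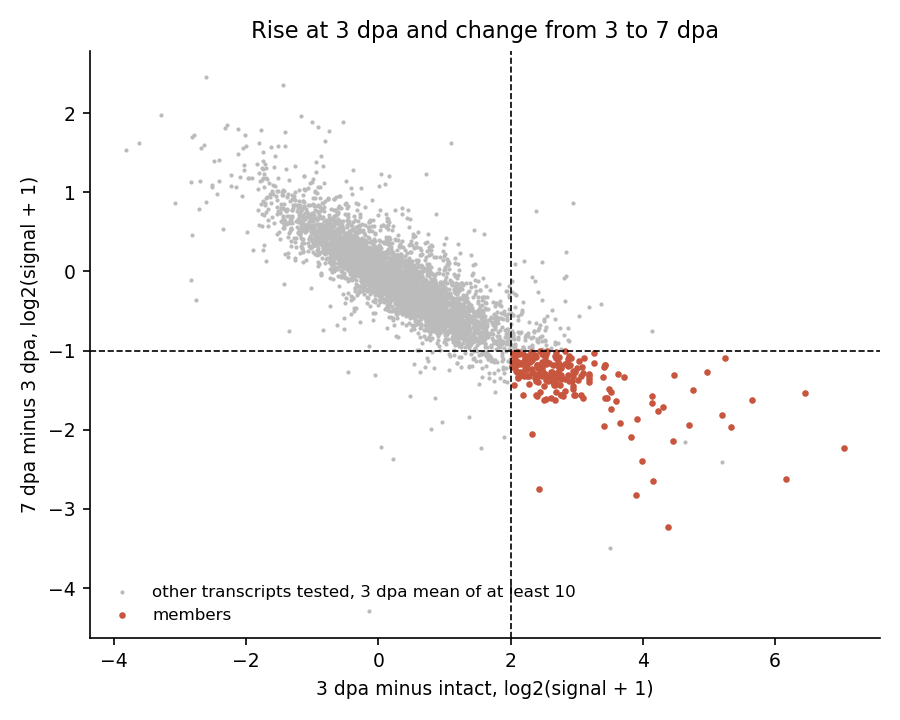
Change from 3 to 7 dpa against the 3 dpa minus intact difference, both on the log2(signal + 1) scale, for the 205 tested members (red) and the 5829 other tested transcripts with a 3 dpa mean of at least 10 (grey); dashed lines mark the thresholds of 2 and -1. The members continue the cloud of the other transcripts without a gap at either threshold. Both axes share the 3 dpa mean with opposite sign, which favours a downward tilt of the cloud. Grey points beyond both lines were listed at 0 in every intact library.

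Nearest to the threshold on the rise, ENSDART00000158551 was just inside at 2.01 and ENSDART00000147252 just outside at 1.995. On the change to 7 dpa, ENSDART00000129969 was inside at -1.005 and ENSDART00000173446 outside at -0.996. On the mean 3 dpa signal, ENSDART00000169749 was inside at 10.03 and ENSDART00000162882 outside at 9.79.

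Annotated transcripts made up 187 of the members and assembled ones 19, or 9.22%. Assembled transcripts were 20.6% of all tested, 10.3% of those tested with a 3 dpa mean of at least 10, and 11.6% of the 311 early risers. The 19 assembled members had a median rise of 3.43 and a median change to 7 dpa of -1.53, against 2.61 and -1.29 in the 187 annotated ones. Their intact means were lower, with a median of 1.61 against 4.92, and so were their 3 dpa means, at 23.6 against 37.6. These are descriptions of the chosen transcripts and were not tested.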

How the data were processed

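As deposited by the authors, the mRNA table gives each transcript's signal in each library to 2 decimals. Per the submitters' processing notes, cutadapt, TopHat2 2.0.3.12, RSEM and edgeR were used, with no role given for each, and hg38 is named although the organism is zebrafish. The sources used here name no zebrafish build, and no coordinates were used. The signals held no whole-read steps, so counts could not be recovered. The lncRNA and circRNA tables were not used here.

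Members and lists were chosen with earlier results of these data known. The whole table was fitted with limma 3.58.1 in R 4.3.3 (trend and robust settings, group means, no covariate) on log2(signal + 1). Transcripts with a signal of at least 1 in at least 3 libraries were kept, which left 25001. Tests were two-sided with Benjamini-Hochberg adjustment over all of them, at a threshold of 0.05. A pseudocount of 1 understates changes of low transcripts. The fit was run on simulated data, and the rule was checked on a few made-up rows with known answers. The 9 gene lists and the cell type markers that had been set down matched 0 transcripts, because the tables pair no transcript IDs, and were not used. Figures were drawn with matplotlib 3.10.9 in Python 3.11.15.

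Named members are the 5 with the largest rise, the 5 with the highest 3 dpa mean, and the 3 with the lowest and 3 with the highest kept share among those whose 3 dpa libraries lay above both other groups, plus the nearest transcripts at each threshold. Alternatives covered scaling, pseudocount, filter, replicate block, fit settings, the rule's thresholds and each library left out.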

Additional observations from a re-analysis of the deposited data

How the results depend on the processing

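The rechosen list held 236 transcripts with median-ratio factors, 220 with equal table totals and 180 with quantile normalization (177 of them members). Pseudocounts of 0.1 and 0.5 gave 235 and 219. Stricter rules left 51 (a rise of 3) or 11 (a change of -2) members, by construction. Lists rechosen without single libraries held 196 (184 called at 7 dpa against intact fin) to 223 (210 called). Of all tested transcripts, 2297 to 2865 were then called higher. The whole-table calls were 12499 at 3 dpa against intact fin and 8169 with a filter at 5, which tests fewer transcripts, and 10433 to 12458 without single libraries. Between 3 and 7 dpa they were 5423, and 3230 (without replicate 3 of 3 dpa) to 5380. At 7 dpa against intact fin they were 6382, and 4525 to 5912. Scaling turned the majority direction of all 3 comparisons. At 3 dpa against intact fin 5510 were higher and 6989 lower, and 6546 and 5687 with median-ratio factors. From 3 to 7 dpa 2812 and 2611 became 2328 and 3237, and 2620 and 2796 with equal table totals. At 7 dpa against intact fin 3093 and 3289 became 3526 and 2693 with median-ratio factors, 3402 and 2832 with equal table totals and 3353 and 3028 with quantile normalization. The share of transcripts that met both thresholds in the left-out 3 dpa library was 74.0% to 92.3%, lowest for replicate 2, against a mean of 90.6% when all 3 chose the list. The cause was not tested. The median part of the rise kept at 7 dpa was 49.8% to 52.8% over the scaling, pseudocount and left-out-library alternatives. Each of these lists was rechosen with the same thresholds, which limit this part, so the narrow range is in part set by the rule. Under the stricter rules the median was 58.5% (rise) and 36.1% (change).

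Same-numbered libraries did not deviate together (correlations of -0.023 to 0.071). The labels state no pairing, and these correlations cannot exclude one. With a replicate block, 11900 transcripts were called at 3 dpa against intact fin and 195 members at 7 dpa against intact fin. Refits covered the tested members named by rule and, for 7 dpa minus intact alone, ENSDART00000006419 and TCONS_00049946. The sign turned for 2 uncalled 7 dpa minus intact differences. That of ENSDART00000161986 went from 0.27 to -0.36 with a pseudocount of 0.1 and lay at -0.16 to 1.05 without single 7 dpa libraries, with -0.07 without replicate 2. That of ENSDART00000006419 went from -0.32 to 0.39 with a pseudocount of 0.1 and lay at -0.94 to 0.91 without single libraries, with 0.13 without replicate 2 of 7 dpa. Depth is unknown, which limits most the signals below 1.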
